A study of Mus musculus with 27 samples.

Results

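The Myod1 locus was examined from 26.5 kb before the start of the gene to 1.91 kb after its end, every position of the deposited table that lies there being taken by its coordinate. Of 937644 positions in the table, 37 lay in this interval. They formed 2 runs, a run being a stretch of positions with gaps of at most 200 bp. The run over the start of Myod1 held 32 positions (chromosome 7, 46376422 to 46376849, mm10) and a run inside the gene held 5 (46377699 to 46377771). The interval was meant to take in the core enhancer and the distal regulatory region upstream of the gene. No position of the table lay in the 26422 bp of the interval before the start run, so these elements were not analysed here. The locus was chosen by measured values, namely the 24 h rhythm of the methylation levels at the gene start, already known from these data. The rhythm of the start run is therefore given as a description, without a test.

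Myod1 (MyoD) encodes a basic helix-loop-helix transcription factor that binds E-boxes together with E proteins and switches on the muscle programme, including myogenin. It is active in proliferating myoblasts as well as in myotubes, and its transcription depends on the core enhancer and the distal regulatory region, which lie upstream of the promoter. In skeletal muscle, Myod1 is also known as a target of the clock activators CLOCK and BMAL1. Methylation of cytosines in CpG is commonly low at active gene starts.

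The cells were C2C12, a mouse myoblast line differentiated into myotubes at 2% horse serum and then given 50% horse serum for 2 h, a serum shock, which sets the circadian clocks of many cells in a dish to the same phase. DNA was sampled at 12, 18, 24, 30, 36, 42, 48, 54 and 60 h after the shock, with 3 libraries per time point and 27 in all. Every library had the shock, and no unshocked control was analysed here. Reduced representation bisulfite sequencing (RRBS) reads the share of methylated cytosines in short fragments cut at CCGG, which favours stretches rich in CpG. The sources do not say whether the 3 libraries of a time point came from separate cultures, so the tests measure the spread between these libraries, which may be technical. The label C2C12 could not be checked against muscle genes, since no expression values were used here.

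The depth behind the levels is unknown. Library means over the 871894 positions with a level in all libraries lay between 11.4% and 12.7%. Of all positions of the table, a library lacked between 1640 and 21925. Pearson correlations between libraries across 18447 runs ranged from 0.938 to 0.980 over 351 pairs, so that no library was a copy of another.

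Of 248863 table positions that fall within RefSeq gene start windows, 99.98% were the C or the G of a CpG when coordinates are counted from 1. Positions 1 bp apart were therefore taken as the 2 strands of the same CpG. Where CpGs adjoin, as in CGCG, positions 1 bp apart can also belong to neighbouring CpGs. By this count the start run held 22 CpGs, from 52 bp before the gene's start to 375 bp inside it, and the run inside the gene held 5 CpGs, 1225 to 1297 bp from the start. Between these runs lay 850 bp without a level. The nearest position outside the interval was 137.9 kb before the start run, beside Ush1c, and 18.3 kb after the run inside the gene, at Kcnc1. The gene is annotated at 46376474 to 46379092 (2619 bp); exons and untranslated parts were not annotated in the tables used here.

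Sequence of Myod1 itself was not printed, because its start window is not among the 32851 RefSeq windows used here. The windows of its neighbours on either side are shown instead, the upstream one without a measured position and the downstream one with measured positions. They do not stand for the rest of the upstream part, whose sequence was not used here. Why that part had no level was not tested. The window of the long non-coding RNA gene Gm45923 lies upstream of Myod1, 5321 to 5022 bp before its start (GRCm38.p6, chr7:46371153-46371452, plus strand). The window of Kcnc1, which encodes a voltage-gated potassium channel, is the nearest downstream (chr7:46396218-46396517, plus strand). Each is printed from its 5′ end, with CpG in capitals.
Gm45923: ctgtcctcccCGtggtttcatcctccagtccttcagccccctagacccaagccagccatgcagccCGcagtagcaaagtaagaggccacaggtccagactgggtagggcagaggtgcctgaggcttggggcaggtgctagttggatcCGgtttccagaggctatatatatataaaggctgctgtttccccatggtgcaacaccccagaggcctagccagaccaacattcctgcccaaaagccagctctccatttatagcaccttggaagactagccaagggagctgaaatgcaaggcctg
Kcnc1: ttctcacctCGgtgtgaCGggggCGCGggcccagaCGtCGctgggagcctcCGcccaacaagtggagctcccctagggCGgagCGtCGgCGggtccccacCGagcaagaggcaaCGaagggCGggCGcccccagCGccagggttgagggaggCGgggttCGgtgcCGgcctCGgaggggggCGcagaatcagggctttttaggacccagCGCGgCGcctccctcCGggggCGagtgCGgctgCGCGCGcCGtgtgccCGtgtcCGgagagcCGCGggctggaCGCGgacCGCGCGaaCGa

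The Gm45923 window held 3 CpGs and 1 CCGG, and 0 of its positions had a level. The Kcnc1 window held 41 CpGs and 3 CCGG, and 50 of its positions had a level, with a mean of 18.2% ± 4.80 (SD over 27 libraries). A window held 7 CpGs in the median, and 52.8% of all windows contained CCGG. Searched on both strands, which is the same search for these palindromic letters, the E-box CANNTG occurred once in each of the 2 windows and in 72.3% of all windows. Neither CAGCTG (16.3% of windows) nor CACGTG (7.15% of windows), which are forms of CANNTG, occurred in these 2. A match describes letters only and is no evidence of binding.

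**Figure D1:**
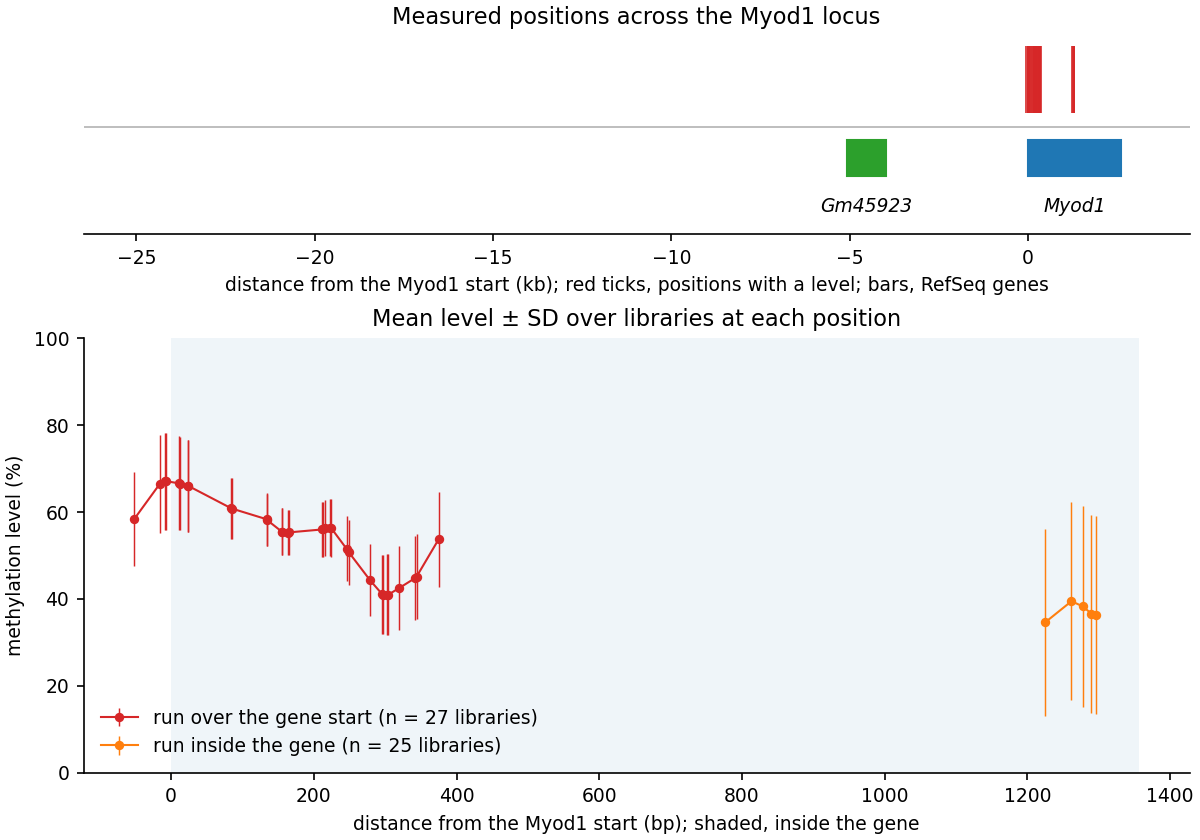
The upper panel marks the 37 measured positions (red ticks) and the genes Myod1 and Gm45923 (bars) by distance from the Myod1 start in kb. The lower panel shows the mean methylation level (%) at each position with its SD over libraries: 27 libraries stand behind the start run and 25 behind the run inside the gene, where the bars are longest.

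The start run was partly methylated, at 55.1% ± 5.44 (SD, n = 27 libraries), with 43.3% in the lowest library (12 h, replicate 2), a median of 55.3% and 64.6% in the highest (24 h, replicate 2). The level exceeded 50% in 21 of 27 libraries. It lay above 86.5% of 17903 autosomal runs, whose median was 5.76%. Of the 7968 autosomal runs that overlap a RefSeq gene start window, 96.1% had a lower level. The start run was not itself in that set, since Myod1 had no window there. The median of the set was 3.24%, 76.4% of its runs were under 10% and 4.83% reached 50%. The spread of the start run between libraries was ordinary for its level: of 342 autosomal runs within 10 points of it and with 16 to 64 positions, 52.6% had a smaller SD, and their median SD was 5.32 points.

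Along the run the level was not even. It was highest at the gene's start, at 67.1% ± 11.1 at the position 7 bp before it, and lowest 303 bp inside the gene, at 40.9% ± 9.31 (SD, n = 27 each). From there it climbed again to 53.8% ± 10.9 at the last position, 375 bp inside. Within a library the highest and the lowest of the 32 positions were 15.2 to 52.5 points apart, with a median of 30.6 points.

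Gaps of more than 40 bp divide the run into 4 segments, which describe this profile. Segment 1 holds the 6 CpGs around the gene's start (52 bp before to 24 bp inside) and had a mean level of 65.5% ± 10.7. Segment 2 is the CpG at 84 bp (60.8% ± 6.98), and segment 3 holds the 3 CpGs at 134 to 165 bp (56.3% ± 5.41). Segment 4 holds the 12 CpGs from 212 to 375 bp and was the lowest, at 48.6% ± 7.30 (SD, n = 27 each). Segment 1 exceeded segment 4 in 25 of 27 libraries, by 16.9 ± 11.9 points on average, with a range from -6.75 points (12 h, replicate 2) to 41.4 points (60 h, replicate 1). No p is given for this step, because the segments were compared after the profile had been seen.

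Neighbouring positions shared most of their variation, so the 22 CpGs are far fewer than 22 measurements. Deviations of the libraries from the mean correlated at a Pearson r of 0.930 between start run positions 21 to 40 bp apart and of 0.520 at 61 to 80 bp (40 and 46 pairs of positions). It was 0.418 at 81 to 100 bp (39 pairs) and 0.194 from there to 200 bp (141 pairs). Over all positions with a mean of 10% to 90% the same values were 0.877, 0.447, 0.228 and 0.0494. Positions 1 bp apart, taken as the 2 strands of a CpG, had an r of 0.9997 in the start run. Over all positions with a mean of 10% to 90% it was 0.9998, pairs from adjoining CpGs included. Positions 1 bp apart are thus not separate measurements here. Levels, lowest points and amplitudes at single positions are therefore those of a stretch of neighbouring CpGs. Whether the levels were smoothed before they were deposited is not given in the labels and was not tested. Between segments 1 and 4, r was 0.168 and Spearman's rho 0.156 over the 27 libraries, which share library and depth, and r was 0.0231 without the 2 libraries farthest from the median of segment 1. The ends of the run thus varied largely apart from each other; at 12 h, replicate 2 had 33.0% in segment 1, against 77.6% and 68.5% in replicates 1 and 3, whereas in segment 4 it had 39.8%, against 37.7% and 47.9%.

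How the start run varied over time is described without a test. At 12 h its level was 51.2%, 43.3% and 56.7% in replicates 1 to 3, at 18 h 54.2%, 58.5% and 49.7%, and at 24 h 62.1%, 64.6% and 63.6%. At 30 h it was 58.7%, 50.9% and 59.5%, at 36 h 48.9%, 59.7% and 55.3%, and at 42 h 55.4%, 52.4% and 51.4%. At 48 h it was 59.1%, 55.3% and 62.5%, at 54 h 48.2%, 56.6% and 59.1%, and at 60 h 49.4%, 51.9% and 48.2%. The 3 libraries of 24 h were the highest of the series apart from replicate 3 of 48 h, which lay among them. The 3 libraries of 60 h lay between 48.2% and 51.9%, and no library of 24 or 48 h was that low.

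In order of their means, the time points ran from 60 h (49.8% ± 1.91) through 12 h (50.4% ± 6.72), 42 h (53.1% ± 2.10), 18 h (54.1% ± 4.41), 36 h (54.6% ± 5.40), 54 h (54.6% ± 5.70), 30 h (56.4% ± 4.74) and 48 h (59.0% ± 3.60) to 24 h (63.4% ± 1.25; SD, n = 3 each). Each neighbouring pair in this order had overlapping libraries, 48 h and 24 h included. The means spanned 13.6 points and had an SD of 4.21 points. The pooled SD of single libraries within time points was 4.36 points, which does not measure the spread of means. A cosine of 24 h fitted to these values had an amplitude of 4.73 points (SE 1.10) and a crest 0.775 h after each multiple of 24 h. Of the 342 runs of similar level and size, 96.5% had a smaller amplitude, and their median was 1.76 points; since the locus was picked for its rhythm, this rank supports nothing.

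**Figure D2:**
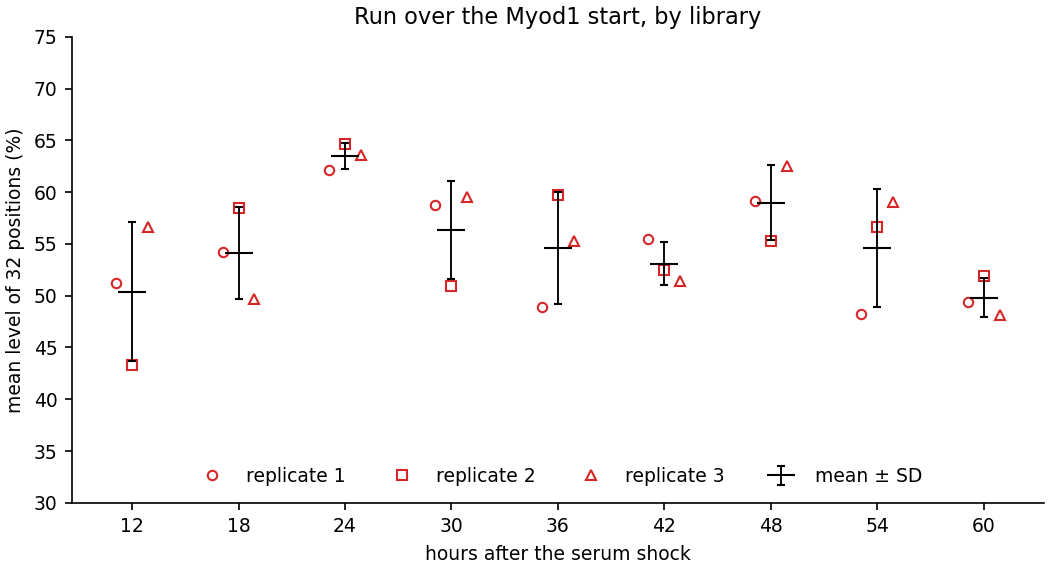
Mean level of the 32 positions of the start run (%) against hours after the serum shock, for each of 27 libraries (symbols by replicate), with the mean and SD of the 3 libraries per time point in black. The 24 h libraries sit between 62.1% and 64.6%, and those of 60 h between 48.2% and 51.9%; the axis starts at 30%.

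The fitted 24 h amplitude differed along the run, although the segments were not tested against each other. Time point means spanned 17.3 points in segment 1, 16.6 in segment 2, 5.96 in segment 3 and 18.1 in segment 4. Segment 4, inside the gene, had a fitted 24 h amplitude of 6.99 points (SE 1.41), against 3.803 points (SE 2.80) in segment 1 over the gene's start, 2.95 (SE 1.87) in segment 2 and 1.15 (SE 1.45) in segment 3. By position the amplitude was greatest near the lowest level, at 9.11 points (SE 1.67) 296 bp inside the gene, and it was 1.12 points (SE 1.67) at 135 bp.

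In segment 4 the level at 24 h was 58.9%, 57.6% and 57.0% in replicates 1 to 3, and at 48 h it was 51.8%, 53.0% and 58.7%. At 12 h it was 37.7%, 39.8% and 47.9%, at 36 h 39.99%, 50.8% and 50.1%, and at 60 h 33.7%, 48.4% and 37.3%. All libraries of 24 h and 48 h were above all libraries of 12, 36 and 60 h there, the nearest being 51.8% at 48 h and 50.8% at 36 h. Since the locus was picked for its rhythm, this separation supports nothing. The share of all runs with such a separation was not counted.
The times between were 49.5%, 51.2% and 37.6% at 18 h, 58.7%, 46.0% and 55.4% at 30 h, 51.4%, 49.0% and 43.2% at 42 h, and 45.3%, 48.3% and 54.5% at 54 h. Each of these times had libraries within the range of 12, 36 and 60 h, and 30 h and 54 h also had libraries within the range of 24 h and 48 h.

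Around the gene's start, in segment 1, the groups overlapped more. The mean was 76.7% ± 7.93 at 24 h and 66.5% ± 7.77 at 48 h, with 59.7% ± 23.6 at 12 h, 68.8% ± 6.33 at 36 h and 61.6% ± 12.7 at 60 h (SD, n = 3 each). The pooled SD within time points was 11.1 points in segment 1 and 5.55 points in segment 4. Segment 3 varied least between time points, with time point means between 52.9% (54 h) and 58.8% (48 h) and a pooled SD of 6.10 points.

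**Figure D3:**
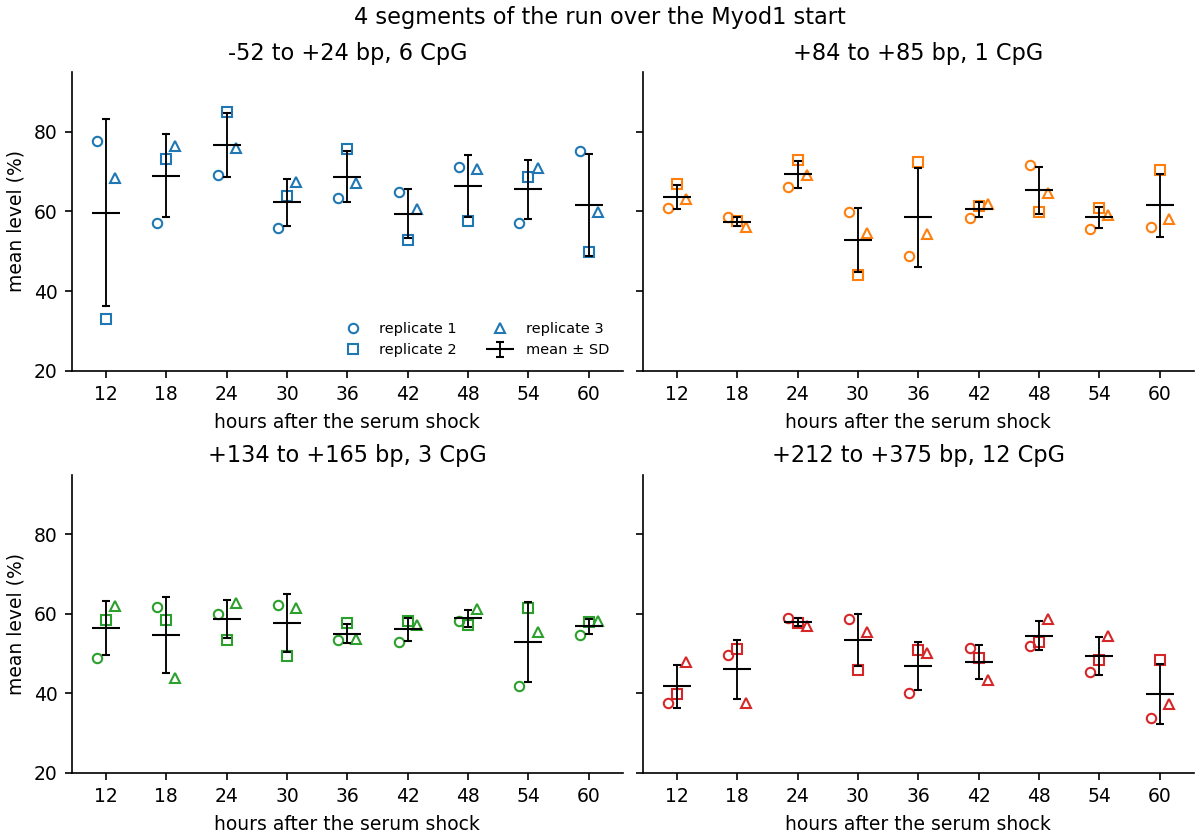
Mean level (%) of the 4 segments of the start run against hours after the serum shock, by library and replicate, with mean and SD of 3 libraries in black; titles give the distance from the Myod1 start and the number of CpGs. In the segment from 212 to 375 bp the libraries of 24 h and 48 h lie above those of 12, 36 and 60 h. The locus was picked for its 24 h rhythm, so this separation supports nothing. The share of all runs with such a separation was not counted.

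**Figure D4:**
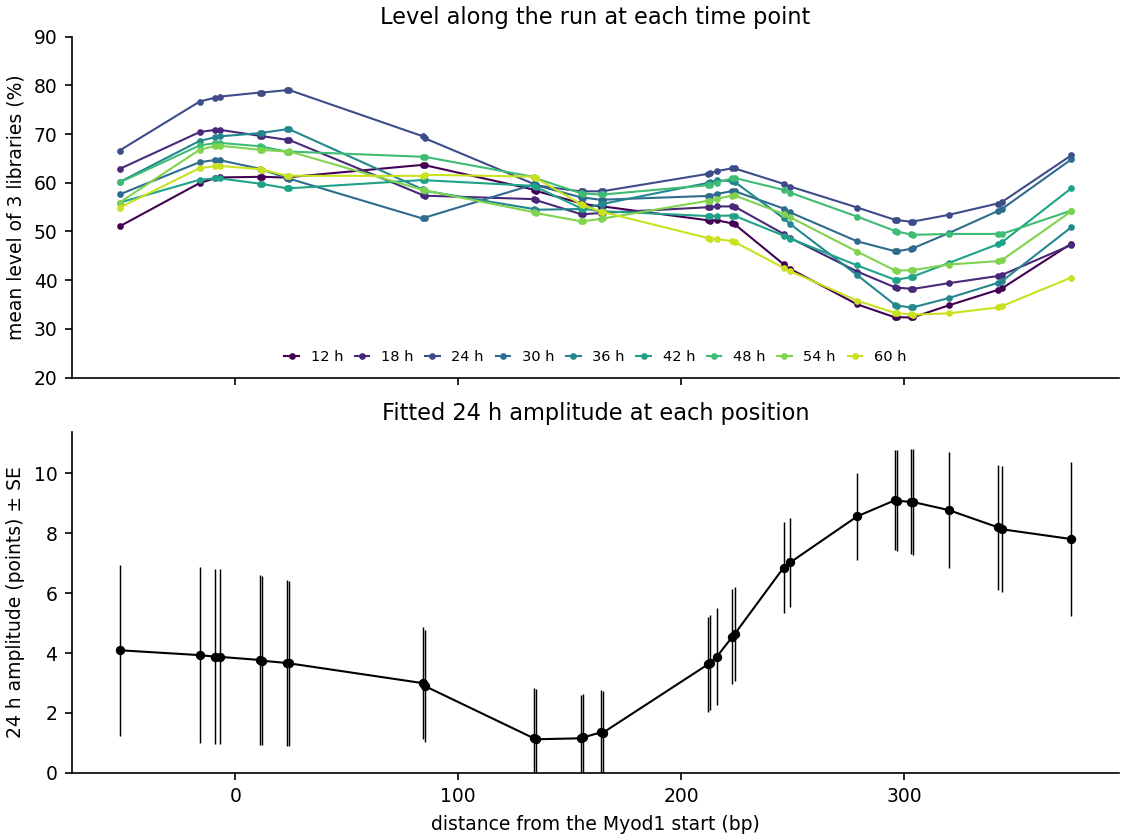
Upper panel: mean level of 3 libraries (%) at each position of the start run for the 9 time points, against distance from the Myod1 start in bp. Lower panel: fitted 24 h amplitude in percentage points with its SE (n = 27 libraries), lowest near 135 bp and greatest, 9.11 points, at 296 bp.

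The labels name no batch, only replicate numbers, and the values within each number were set beside the pooled one. The start run had an amplitude of 5.34 points (SE 1.502) in the 9 libraries numbered 1, 4.15 (SE 2.72) in those numbered 2 and 6.31 (SE 1.60) in those numbered 3, with crests at 23.5, 23.2 and 2.93 h of the 24 h cycle. Segment 4 had 9.61 (SE 2.55), 4.54 (SE 1.80) and 9.45 points (SE 2.35) in the same order. Segment 1 had 3.08 (SE 4.31), 9.54 (SE 7.27) and 4.07 (SE 2.54), segment 2 had 6.47 (SE 2.11), 4.57 (SE 4.73) and 3.91 (SE 2.10), and segment 3 had 4.204 (SE 3.17), 1.98 (SE 1.76) and 4.24 (SE 2.91). Segment 4 thus had the greatest amplitude of the 4 in libraries numbered 1 and 3, but not in those numbered 2, where segments 1 and 2 had greater ones. In the same order, crests were at 0.312, 22.7 and 3.35 h in segment 4 and at 15.2, 0.629 and 0.261 h in segment 1. They were at 23.8, 15.4 and 22.9 h in segment 2 and at 21.5, 15.2 and 4.64 h in segment 3. A fitted amplitude is never negative and the locus was picked for its rhythm, so these amplitudes support nothing.

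The level of the start run was set beside the mean level of the library over positions with a level in all libraries. Pearson's r between them was 0.261 and rho 0.339 over 27 libraries, and r was 0.525 without the 2 libraries farthest from the median. With the number of positions a library lacked, r was -0.0934 and rho -0.117, and r was -0.148 without 2 libraries. With the mean of each library over all runs as covariate, the 24 h amplitude of the start run was 4.57 points (SE 1.15). Without the covariate it was 4.73 points (SE 1.10). These are descriptions over libraries that share the same series. The part of library quality in the variation over time was not tested.

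A steady drift of the start run from 12 to 60 h was tested, since the locus was not proposed for it. The fitted slope was -1.72 points per 48 h (SE 3.20), which did not pass (limma over 18447 runs, Benjamini-Hochberg adjusted p = 0.998). Of all 18447 runs, 0 passed for a trend (0% called; 920, or 4.99%, at an unadjusted p under 0.05), and 0 passed for a 24 h rhythm (0% called; 800, or 4.34%, unadjusted). Any difference between time points passed at 1 run (0.00542% called; 793, or 4.3%, unadjusted), which lay outside this locus.

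The run inside the gene was less methylated and far more variable. Its level was 37.1% ± 21.8 (SD, n = 25 libraries), with 0% in the lowest library, a median of 35.7% and 80.8% in the highest (36 h, replicate 2). Replicate 2 of 30 h and replicate 3 of 42 h had no level at its 5 positions. Of 681 autosomal runs within 10 points of this level and with 5 to 10 positions, 95.01% had a smaller SD, and the median SD was 9.41 points.

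At 12 h the run inside the gene had 31.7%, 31.0% and 21.9% in replicates 1 to 3, at 18 h 35.1%, 63.3% and 0%, and at 24 h 54.2%, 8.56% and 50.5%. At 30 h it had 30.2% and 65.1% in replicates 1 and 3, at 36 h 55.1%, 80.8% and 0% in replicates 1 to 3, and at 42 h 11.3% and 35.7% in replicates 1 and 2. At 48 h it had 21.9%, 9.61% and 38.0%, at 54 h 22.1%, 49.6% and 64.5%, and at 60 h 39.6%, 53.7% and 53.3% in replicates 1 to 3. Replicates of a time point lay up to the whole range of the series apart, as at 36 h, whereas those of 12 h and of 60 h were closer together.

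Replicate 3 of 18 h and replicate 3 of 36 h were at exactly 0 at all 5 positions. Replicate 1 of 48 h and replicate 3 of 12 h had identical values at all 5. The depth here is unknown, and its part in the spread was not tested. Its highest position, 1262 bp inside the gene, had 39.5% ± 22.7, and its lowest, at 1225 bp, 34.6% ± 21.5 (SD, n = 25 each). Along the 73 bp of this run, levels within a library differed by 11.7 points in the median, up to 36.0 points.

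None of the tests passed for the run inside the gene, over 18749 runs fitted with missing levels allowed and with the 2 libraries without a level left out of its fit. The slope was 10.1 points per 48 h (SE 12.8; limma, adjusted p = 0.985; 0% called over all runs, and 4.98% at an unadjusted p under 0.05). The 24 h amplitude was 9.94 points (SE 6.36; adjusted p = 0.980; 0% called, and 4.3% unadjusted), and for any difference between time points the adjusted p was 0.990 (0.00533% called, and 4.14% unadjusted). The time point means spanned 25.7 points and had an SD of 10.4 points. The pooled SD of single libraries within time points was 23.9 points, which does not measure the spread of means. The levels of the 2 runs of Myod1 were weakly related over 25 libraries, with r = 0.169 and rho = 0.171, and r = 0.294 without the 2 libraries farthest from the median of the start run.

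**Figure D5:**
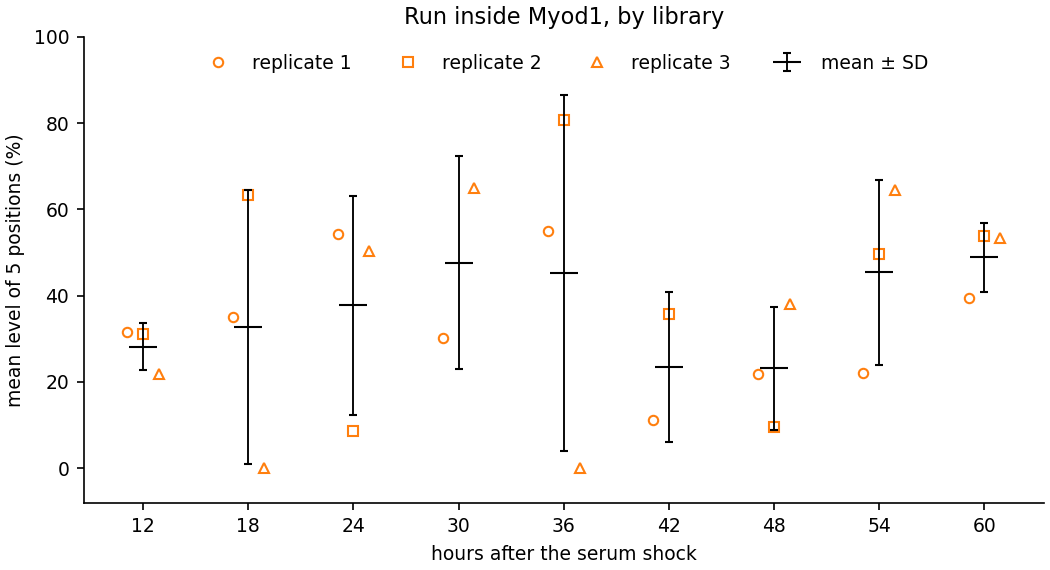
Mean level of the 5 positions of the run inside Myod1 (%) against hours after the serum shock, for each library with a level (symbols by replicate), with mean and SD in black; 30 h and 42 h have 2 libraries, the other time points 3. Libraries range from 0% to 80.8%, and replicates of 18, 24 and 36 h lie far apart.

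On either side of Myod1, the start run had a higher level than 5 of the 6 runs at neighbouring genes. Among the genes within 250000 bp, Otog and Gm45923 had no run, as had 2 further non-coding genes. The 2 runs of Kcnc1 had 15.5% ± 2.13 and 51.7% ± 6.04. The run at Ush1c, a scaffold protein gene of hair cells, had 70.9% ± 7.53. The 2 runs of Abcc8, a subunit gene of the ATP-sensitive potassium channel, had 11.2% ± 6.89 and 19.1% ± 5.30, and the run at Sergef had 2.17% ± 2.51 (SD over 27 libraries). The second Kcnc1 run was close to Myod1 in level and SD, and its fitted 24 h amplitude was 0.696 points (SE 1.59). The trend passed at none of these runs, the smallest adjusted p being 0.976 at Abcc8 (limma).

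Of the 2 runs at other myogenic factors of the family, 1 had a higher mean level than the start run. Myf5, which acts beside Myod1 in committing cells to muscle, had 49.6% ± 18.7 in a run of 8 positions (chromosome 10, 107485679 to 107485814). Myog (myogenin), a target of MyoD that drives differentiation, had 83.9% ± 3.43 (chromosome 1, 134290186 to 134290358; SD over 27 libraries), and Myf6 had no run. Their slopes were -14.2 points per 48 h (SE 10.7) and 0.964 (SE 2.03), and neither of the 2 runs passed for trend or rhythm, for which 0% of all runs were called.

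Of the genes that act upstream of Myod1, 9 of 10 had a run. The lowest was at Clock, which encodes a clock activator, at 2.08%. Pax3, a factor of embryonic muscle progenitors, had runs at 66.6% and 90.9%, and Pax7, the marker of satellite cells, had 4.71%, 7.70% and 30.4%. Arntl, which encodes BMAL1, had 21.6% and 4.92%. Of the 17 runs, 0 rose and 0 fell over time (limma; 2 at an unadjusted p under 0.05, against 4.99% of all runs). These 2 were Clock (-2.32 points per 48 h, SE 0.743) and Foxo3, a forkhead factor (-1.96, SE 0.654). The median slope was -0.198 points, against -0.0222 over all 18447 runs.

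Partners and inhibitors of MyoD mostly had low levels, with a median of 3.18% over 21 runs of 16 of 18 genes. The E protein gene Tcf3 had 2.07%, the acetyltransferase gene Ep300 2.33% and the inhibitor gene Id3 2.45%. The lowest was Id2, which encodes another inhibitor, at 1.66%, and the highest was a run of Twist1, whose product restrains MyoD, at 41.9%. Of these runs, 0 rose and 0 fell (limma, 0% of all runs called; 2 of the 21 at an unadjusted p under 0.05, against 4.99% of all runs). The smallest trend p-values belonged to Tcf4 (-2.06 points per 48 h, SE 0.888) and Twist1 (7.36, SE 3.57).

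Targets of MyoD had a median of 37.0% over 8 runs of 5 of 11 genes. Myog and Mymx, a gene of myoblast fusion, had the highest runs, at 83.9% and 81.4%, and the acetylcholine receptor gene Chrna1 the lowest, at 7.91%. The skeletal actin gene Acta1 had 64.9%, 19.2% and 10.1%. Among the 8 runs, 0 passed in either direction (limma, 0% of all runs called; 0 of the 8 at an unadjusted p under 0.05, against 4.99% of all runs), and the smallest trend p-values belonged to Mymx (8.03 points per 48 h, SE 5.94) and Chrna1 (-2.87, SE 2.71). No run of the 4 lists passed for rhythm either (limma, 0% of all runs called). By the same limma test, 1 had an unadjusted p under 0.05, at Snai1, against 4.34% of all runs. The level of the Myod1 start run was exceeded by 3 of 17 runs of upstream genes and 0 of 21 of partners and inhibitors. It was exceeded by 3 of 8 runs of targets and 1 of 2 of the family, against 2485 of all 18447 runs. The run of Myog counts in both the targets and the family.

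The 5 runs whose levels over the 27 libraries were most like those of the Myod1 start run, by Pearson's r among 7314 runs at 10% to 90% on other chromosomes or at least 1 Mb away, lay within Arhgef26 (r = 0.693; mean level 15.1%), near Ywhag (r = 0.635; 10.4%), and within Slc44a5 (r = 0.601; 29.5%), Ttll8 (r = 0.584; 64.7%) and Ddr2 (r = 0.564; 16.4%). Their fitted 24 h crests were at 2.17, 0.219, 20.6, 0.248 and 21.03 h in the same order. They are the extremes of many comparisons and are given as a description.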

How the data were processed

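The authors deposited methylation levels in a single file, each a fraction from 0 to 1 per position and library, without counts or coverage, so depth is unknown. Per the submitters' processing notes, Trim Galore 0.4.0, cutadapt 1.9.1, Bismark 0.14.4, Bowtie2 and build mm10 were used; the sources used here do not give settings, coverage filters or any smoothing.

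Levels were multiplied to percent. Runs joined positions over gaps of at most 200 bp, with at least 3 positions that had a level in all 27 libraries; the run inside Myod1 lacks 2 libraries and was fitted among runs with at least 2 libraries with a level at every time point. Run means were tested with limma 3.58.1 (R 4.3.3, with the package data.table, version 1.17.8) over all libraries, for linear time, for a 24 h cosine and sine and for time as a factor, with Benjamini-Hochberg adjustment and a threshold of 0.05. The models were tested on simulated data with effects larger than those fitted at the start run, so this says nothing of effects of that size. Amplitudes of segments and positions are least squares fits with their SE. Tables and figures were made with Python 3.11.15, using pandas 2.3.3, numpy 2.4.6, matplotlib 3.10.9 and scipy 1.17.1. Gene positions and start windows are from RefSeq, GRCm38.p6; lists were matched by symbol, and genes and runs within 1000 bp were joined.

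The locus, gene lists and tests were chosen with earlier results of these data known. Named genes are those within 250000 bp, and in each list the lowest, the highest and the 2 smallest trend p-values (1 such result is not reported here); Tcf3, Ep300, Id3, Pax3, Pax7, Arntl, Acta1 and Snai1 were named after their values were seen. Alternatives were M-values, missing levels allowed, gaps of 100 bp, at least 10 positions, levels of 10% to 90%, a prior following the level, the library mean as covariate, periods of 20 and 28 h, leaving out libraries, and a replicate block. Same-numbered libraries of different time points did not deviate together (mean r = 0.00444, range -0.0477 to 0.0440, 108 pairs).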

Additional observations from a re-analysis of the deposited data

How the results depend on the processing

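The slopes of both Myod1 runs and the amplitude of the run inside the gene did not pass under any alternative run, and the slopes kept their direction with 1 exception: that of the run inside the gene was -2.76 points per 48 h without all libraries numbered 3. The start run was among the runs fitted for rhythm. Its own test is not given, because the locus was picked for that rhythm. Leaving out each library in turn, the start run had an amplitude of 4.23 to 5.30 points, a slope of -4.29 to -0.488 points per 48 h and a mean of 54.7% to 55.5%. The extremes of the slope were those without replicate 2 of 12 h and without replicate 3 of 60 h. In the run inside the gene the amplitude was 7.14 to 13.8 points, the slope 5.19 to 14.6 and the mean 35.2% to 38.6%, the extremes of slope and amplitude being without replicate 3 and replicate 2 of 18 h. At periods of 20 h and 28 h the start run had amplitudes of 3.70 and 4.13 points. Counts of runs passing for rhythm and trend were 0 in every alternative run.

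With a replicate block, the start run amplitude was 4.73 points and its slope -1.72, and 2 runs passed for any difference between time points, as with a prior following the level and without all libraries numbered 3. That count was 0 with M-values, at 10% to 90% only and with the library mean as covariate. It was also 0 without all libraries numbered 1 or 2, and 0 to 3 when single libraries were left out. These counts are of runs with a level in all 27 libraries. With missing levels allowed, the count was 3 with a replicate block and 6 without all libraries numbered 3. There it was 1 without all libraries numbered 1 or 2, and 5 without replicate 2 of 18 h. The cause was not tested. The numbers share only a label, so the block says nothing of pairing. The amplitudes within each replicate number were chosen after seeing the data. Unknown depth limits all values, most of all in the run inside the gene, where the amplitude was 3.73, 22.1 and 33.3 points in libraries numbered 1, 2 and 3.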
